A study of Homo sapiens with 24 samples.

Results

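The subject is the difference between 2 responses to the antiandrogen enzalutamide, one in LNCaP cells with a knockdown of SIRT1 and one in control LNCaP cells. For each gene it is the change from dihydrotestosterone (DHT) alone to DHT with enzalutamide in knockdown cells, minus the same change in control cells. It was taken from 4 of the 8 groups of the series, 12 of the 24 libraries, chosen by their labels and not by any measured value. LNCaP is a hormone-sensitive prostate cancer line, and SIRT1 is a protein deacetylase that needs NAD. Gene expression was measured by RNA sequencing of polyadenylated RNA.

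Lentivirus had brought a short hairpin RNA into both: one labelled NTC and described as scrambled into the control cells, and one against SIRT1 labelled 10 into the knockdown cells. Both were infected at a multiplicity of infection of 10, selected in 1 µg/ml puromycin and then held as stable knockdown clones in 0.5 µg/ml. All cells grew for 48 h with fetal bovine serum and then for 24 h with serum stripped of androgens by charcoal. They were then treated for 24 h with 1 nM DHT or with 1 nM DHT and 10 µM enzalutamide. A group of each kind had vehicle in place of DHT. It is no term of the contrast and is used here to estimate the spread and to show the level without androgen. Each of these groups has 3 libraries. The labels do not say whether these were separate cultures, so the p-values measure only the spread between these libraries, which may be technical. Any other difference between the 2 stable clones cannot be told apart from the loss of SIRT1.

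The androgen receptor is a transcription factor that DHT activates and that enzalutamide blocks by binding to the same pocket. In LNCaP cells androgen both induces prostate genes such as the kallikreins and drives division. Genes needed to copy DNA are switched on at the entry to S phase, largely by E2F factors, and genes of chromosome segregation are switched on later, largely through a promoter element called the cell cycle genes homology region (CHR). In bulk RNA, fewer cells in a phase of the cycle and less RNA per cell cannot be told apart.

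The list of genes with most members whose antiandrogen response differed between the cells was that of the replication fork. The promoters of PRIM1, DUT and CDT1, 3 genes of DNA replication with such a difference, are shown first. Beside them are those of 2 mitotic genes with a difference near 0, chosen to show the CHR. The sequences are RefSeq's on GRCh38.p14, from 90 bases before to 30 bases after a transcription start site, read 5′ to 3′ along the gene. Capitals in the first 3 mark matches on either strand to 4 E2F-type octamers (TTTGGCGC, TTTCCCGC, TTTCGCGC or TTCCCGCC, which can overlap). PRIM1 encodes the catalytic subunit of DNA primase, DUT a dUTPase that keeps uracil out of DNA, and CDT1 a loading factor of the replicative helicase. The DUT window is that of 1 of its 4 start sites in the table, and the windows of the other 3 hold no E2F-type match. Upstream of the stretch shown, within 250 bases of that start site, DUT also holds the CHR (TTCAAA on this strand).
PRIM1 (chr12:56752294-56752413, minus strand): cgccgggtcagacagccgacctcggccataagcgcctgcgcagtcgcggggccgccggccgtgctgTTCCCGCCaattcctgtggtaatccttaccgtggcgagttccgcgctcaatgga
DUT (chr15:48332107-48332226, plus strand): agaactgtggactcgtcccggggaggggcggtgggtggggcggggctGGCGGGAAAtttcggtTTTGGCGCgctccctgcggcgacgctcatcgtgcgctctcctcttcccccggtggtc
CDT1 (chr16:88803699-88803818, plus strand): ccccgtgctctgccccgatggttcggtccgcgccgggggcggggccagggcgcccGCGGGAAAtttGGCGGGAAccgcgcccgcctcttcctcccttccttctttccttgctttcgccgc
Capitals in the next 2 mark the CHR, TTTGAA, on either strand. KIF14 and KIF23 encode kinesins that act in cell division, and both were picked after values were seen. They had the differences nearest 0 among kinetochore list genes with a CHR and a single start site. The CHR was thus a condition of the choice and not a finding about them.
KIF14 (chr1:200620722-200620841, minus strand): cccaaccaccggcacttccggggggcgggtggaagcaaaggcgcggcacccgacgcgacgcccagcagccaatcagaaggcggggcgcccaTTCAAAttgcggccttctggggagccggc
KIF23 (chr15:69414259-69414378, plus strand): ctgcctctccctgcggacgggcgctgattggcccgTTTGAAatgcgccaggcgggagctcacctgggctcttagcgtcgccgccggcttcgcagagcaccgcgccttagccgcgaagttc

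SIRT1 itself, the target of the hairpin, was measured at 46.6, 51 and 50 CPM (counts scaled to a common library size) in NTC libraries 1 to 3 under DHT and at 56.9, 57.8 and 61.4 CPM with enzalutamide. Knockdown libraries 1 to 3 had 13.1, 16 and 17.8 CPM under DHT and 17.6, 20.6 and 21.4 CPM with enzalutamide. No knockdown library reached any NTC library. SIRT1 rose modestly with enzalutamide in both cells, and the 2 changes did not differ detectably (difference 0.09 ± 0.13 SE on the log2 scale, adjusted p = 0.86).

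Total counts were 27.8 to 35.1 M in the 6 NTC libraries and 25.2 to 30.4 M in the 6 knockdown libraries, and 14558 genes were tested. Knockdown library 2 under DHT stood further from its group than any other library. Its counts differed from those of libraries 1 and 3 by a chi-square of 38.6 and 22.4 per gene, against 3.79 to 15.2 for the other pairs of the 4 groups, so no pair was within sampling noise. The 10 luminal prostate markers summed to between 4685 and 5861 CPM. The 8 markers of basal cells or other prostate lines summed to at most 3.04 CPM and were highest in knockdown cells under DHT (2.45 to 3.04 CPM), against 1.83 to 2.22 CPM in NTC cells under DHT. The 8 fibroblast markers summed to 21.5 to 39.5 CPM, carried by COL1A1 and COL3A1, with COL1A2 and DCN at 0. The 10 markers of leukocytes and endothelium summed to 11.5 to 18.4 CPM, with CD3E and MS4A1 at 0. The part of these markers in the results was not tested.

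Fewer genes passed the test for a change with enzalutamide in knockdown cells than in NTC cells. With adjusted p-values under 0.05 taken as a call, 4252 genes (29.2% of those tested) were called in NTC cells, 1829 higher and 2423 lower than with DHT alone. In knockdown cells 2949 (20.3%) were called, 1177 higher and 1772 lower. This knockdown count rose when the replicate number was added to the fit, as given in the last paragraph. The calls shared 2107 genes, 49.6% of the NTC calls and 71.4% of the knockdown calls, and 2102 of these moved the same way. Among those 2102 the change was larger in NTC cells for 1359 and in knockdown cells for 743. The median absolute log2 fold change of the shared genes was 0.46 in NTC cells and 0.39 in knockdown cells. Across all tested genes the 2 responses, which share no library, had a Pearson r of 0.636 and a Spearman rho of 0.645, given as a description since genes are not independent.

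**Figure D1:**
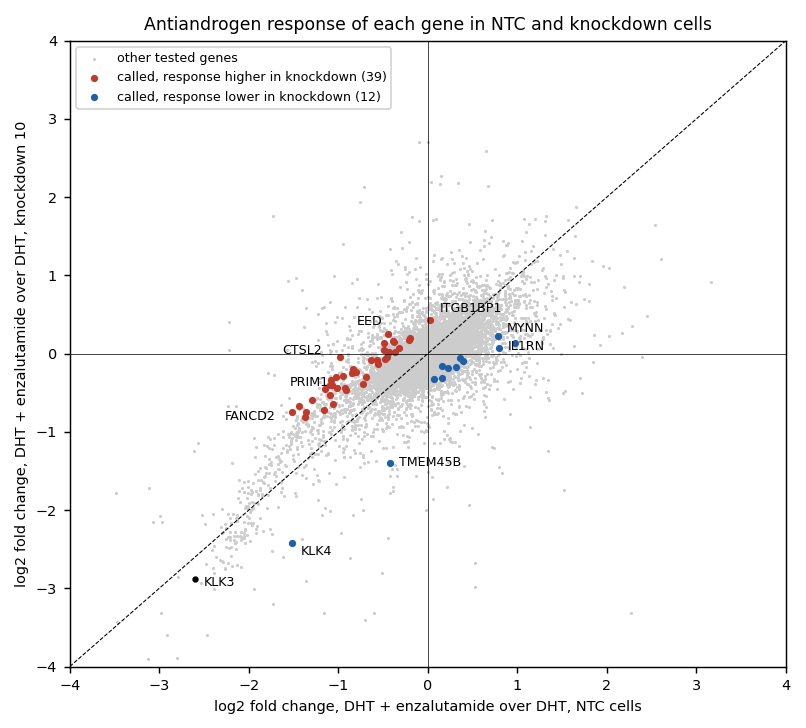
Log2 fold change from DHT to DHT with enzalutamide in NTC cells (x axis) and in knockdown 10 cells (y axis), 1 point per tested gene, with 29 genes outside the plotted range. The 39 genes with a higher response in knockdown cells (red) lie above the dashed line of equal change, mostly where both changes are negative, and the 12 with a lower response (blue) lie below it.

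The difference between the 2 responses was itself called for 51 genes, 0.35% of those tested (edgeR quasi-likelihood test). An unadjusted p under 0.05 was reached by 1728 genes, 11.87%. The difference was positive for 39 genes (0.268%) and negative for 12 (0.0824%), beside a median of -0.0024 over all tested genes. Of the 39, 38 were called lower with enzalutamide in NTC cells, where 16.6% of all tested genes were. In knockdown cells 19 of the 39 were called lower (12.2% of all tested genes were), 4 were called higher (8.08% were) and 16 were not called. The 39 were chosen by the difference, so these directions are not independent of the choice. The median log2 fold change of the 39 was -0.83 in NTC cells and -0.25 in knockdown cells. Only ITGB1BP1 of the 39, a regulator of integrins, had a positive log2 fold change in both cells. In NTC cells it was near 0 and not called (0.03 ± 0.05 SE, adjusted p = 0.722). In knockdown cells it was 0.43 ± 0.05 SE and was called. The count of 51 depended on the fit and on single libraries. With the vehicle libraries left out of the fit, 5 genes were called, DSN1, IL1RN, PI4K2B, PRIM1 and C20orf72. PRIM1 was then the 1 call in any gene list. With the DESeq2 Wald test 256 genes were called. Without NTC library 1, 2 or 3 under DHT it was 18, 29 or 16, and without NTC library 1, 2 or 3 under enzalutamide 17, 22 or 33. Without knockdown library 1, 2 or 3 under DHT it was 104, 176 or 31, and without knockdown library 1, 2 or 3 under enzalutamide 30, 19 or 22. All 51 kept their sign in all 18 alternative settings, and 14 remained called in each of the 12 fits without 1 library. The other 37 each lost the call in at least 1 of the 12. FAM117A remained called in 1 of them, CENPL, MYNN, DLGAP4 and DYRK1B in 2, GEN1, RFC5, FDPS and DYNLRB1 in 3, FANCD2 and C17orf63 in 4, CCNE2, FADS1 and DNMT1 in 5, USP1 and POLH in 6, and CTSL2 in 7. Over all 18 settings the highest adjusted p of any of the 51 was 0.208.

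The same difference can be read as the gap between knockdown and NTC cells, first under DHT and then with enzalutamide. Under DHT 43% of all tested genes were called between the cells. Of the 39 genes, 38 were lower in knockdown cells (23.5% of all tested genes were) and 1 was higher (19.5% were). The libraries of the 2 cells overlapped in none of the 39, and they were likewise apart for 47% of all tested genes. With enzalutamide 34.6% of all tested genes were called. Of the 39, 16 were lower in knockdown cells (19.2% of all tested genes were), 5 were higher (15.4% were) and 18 were not called. The median gap of the 39 was -0.65 under DHT and -0.15 with enzalutamide. Both gaps are part of the difference by which the 39 were chosen, so these counts and medians are not independent of that choice.

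The machinery at the replication fork held the most called genes of any list. All 30 tested genes of the list of replication fork and polymerase genes fell with enzalutamide in NTC cells (median log2 fold change -1.21), where 16.6% of all tested genes were called lower. In knockdown cells 27 of the 30 fell (median -0.71), where 12.2% of all tested genes were called lower. The difference was above 0 for 27 of the 30, with a median of 0.42, and 5 passed the test, all of them positive: PRIM1, PCNA, RFC5, DNMT1 and RPA1. Over all tested genes 0.35% passed, the background for this list and those below. The gap between knockdown and NTC cells had a median of -0.93 under DHT and -0.35 with enzalutamide over the list. The number called was 3 to 10 when 1 library was left out. It was 10 without knockdown library 1 under DHT, and 3 without NTC library 1 or 3 under DHT, NTC library 1 or 2 under enzalutamide, knockdown library 3 under DHT, or knockdown library 2 or 3 under enzalutamide. The median stayed between 0.38 and 0.50.

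PRIM1, whose start site window with 1 E2F-type match is printed above, was at 34.2, 29.6 and 30.2 CPM in NTC libraries under DHT and at 11, 11.4 and 12.4 CPM with enzalutamide. In knockdown cells it was at 14.8, 13.6 and 15.3 CPM under DHT and at 8.85, 9.25 and 9.36 CPM with enzalutamide. The NTC libraries under DHT were far above the other 9, none of which passed 15.3 CPM. The vehicle means of PRIM1 were 12.3 ± 0.228 CPM in NTC and 8.88 ± 0.618 CPM in knockdown cells (SD, n = 3), near the levels with enzalutamide. PRIM1 fell 2.71-fold in NTC cells and 1.59-fold in knockdown cells, a log2 difference of 0.77 ± 0.11 SE (adjusted p = 0.00527).

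PCNA, the sliding clamp that tethers polymerases to DNA, was at 231, 209 and 237 CPM in NTC libraries under DHT and at 79.2, 94.8 and 90.8 CPM with enzalutamide. Its knockdown levels were 135, 117 and 127 CPM under DHT and 72.2, 75.1 and 77.9 CPM with enzalutamide. The gap between the cells was wide under DHT and smaller, though still called, with enzalutamide (log2 -0.23, adjusted p = 0.0156). The vehicle means were 95.5 ± 4.26 CPM in NTC and 75.9 ± 2.09 CPM in knockdown cells (SD, n = 3). PCNA fell 2.56-fold in NTC cells and 1.68-fold in knockdown cells (log2 difference 0.61 ± 0.10 SE, adjusted p = 0.0102).

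RPA1, the large subunit of the complex that coats single-stranded DNA, was at 211, 204 and 208 CPM in NTC libraries under DHT and at 162, 162 and 161 CPM with enzalutamide. Its knockdown libraries were at 152, 151 and 153 CPM under DHT and at 152, 150 and 158 CPM with enzalutamide. RPA1 thus fell with enzalutamide in NTC cells, while the knockdown groups overlapped, with a change of 0.01 ± 0.04 SE (log2; adjusted p = 0.84). The log2 difference was 0.38 ± 0.05 SE (adjusted p = 0.00527). RFC5, a subunit of the clamp loader, and DNMT1, which copies DNA methylation at the fork, fell in both cells and less in knockdown cells, with log2 differences of 0.56 ± 0.11 and 0.42 ± 0.08 SE (adjusted p = 0.041 and 0.033).

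**Figure D2:**
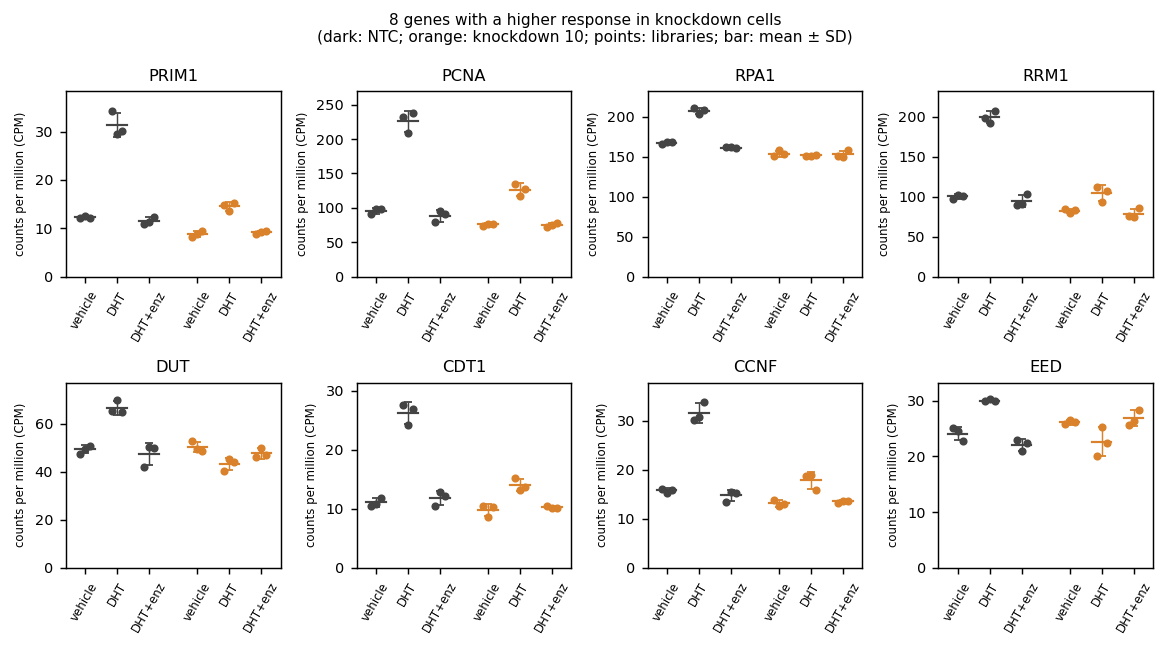
CPM of 8 genes in each of 3 libraries per group (points, with mean ± SD) for vehicle, DHT, and DHT with enzalutamide in NTC (dark) and knockdown 10 cells (orange). In each panel the NTC libraries under DHT are the highest. The means of the 2 cells are closer together with enzalutamide than under DHT, with the order exchanged for EED and, slightly, for DUT.

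Some fork genes did not follow the rest of the list. ASF1B, a histone chaperone, and UHRF1, which guides DNMT1, had log2 differences of -0.57 ± 0.21 and -0.48 ± 0.22 SE (adjusted p = 0.269 and 0.394). LIG1, the ligase that joins Okazaki fragments, had the highest value of the list, 0.84 ± 0.24 SE, and it too missed the threshold (adjusted p = 0.129). These 3 were picked after values were seen.

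Licensing and firing of replication origins showed the same direction with fewer calls. All 25 tested genes of that list fell with enzalutamide in both cells, with median log2 fold changes of -1.54 in NTC cells and -1.13 in knockdown cells. The share called lower over all tested genes was 16.6% in NTC cells and 12.2% in knockdown cells. The difference was above 0 for 22 of the 25 (median 0.32), and CDT1 alone passed the test. With the DESeq2 Wald test 8 of the 25 did, but that test also called more of all tested genes. CDT1 was at 27.6, 24.1 and 27 CPM in NTC libraries under DHT and at 10.5, 12.8 and 12.2 CPM with enzalutamide. In the knockdown group the values were 15.2, 13.3 and 13.7 CPM under DHT and 10.5, 10.1 and 10.2 CPM with enzalutamide, so that the libraries of the 2 cells overlapped under the antiandrogen and not under DHT. The vehicle means of CDT1 were 11.1 ± 0.725 CPM in NTC and 9.82 ± 1.05 CPM in knockdown cells (SD, n = 3). The log2 difference was 0.70 ± 0.13 SE (adjusted p = 0.0313), and CDT1 remained called in 5 of the 12 fits that left out 1 library. Of the helicase subunits, MCM2 and MCM6 had differences of 0.52 ± 0.14 and 0.54 ± 0.13 SE (adjusted p = 0.122 and 0.0755). MCM10 and CDC45, which act when the helicase is switched on, had differences of -0.48 ± 0.29 and -0.42 ± 0.32 SE (adjusted p = 0.549 and 0.664). The 4 genes after CDT1 were picked after values were seen. The number called in this list was 0 to 6 when 1 library was left out. It was 6 without knockdown library 1 under DHT and 0 without NTC library 1 or 3 under DHT, NTC library 1 under enzalutamide, knockdown library 3 under DHT, or any 1 knockdown library under enzalutamide.

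The supply of deoxynucleotides gave 2 calls among 13 tested genes, RRM1 and DUT, and a median difference of 0.35. RRM1, the large subunit of ribonucleotide reductase, was at 199, 192 and 208 CPM in NTC libraries under DHT and at 90, 90.4 and 104 CPM with enzalutamide. Knockdown libraries 1 to 3 had 113, 93.4 and 107 CPM under DHT and 76, 74.3 and 85.8 CPM with enzalutamide. The vehicle means of RRM1 were 100 ± 2.83 CPM in NTC and 82 ± 2.7 CPM in knockdown cells (SD, n = 3). RRM1 fell in both cells, by 1.07 ± 0.07 SE on the log2 scale in NTC cells and by 0.41 ± 0.07 SE in knockdown cells (difference 0.67 ± 0.10 SE, adjusted p = 0.00613).

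DUT was at 65.2, 70 and 64.9 CPM in NTC libraries under DHT and at 42.2, 50.5 and 49.9 CPM with enzalutamide. In knockdown cells it was at 40.5, 45.2 and 44.3 CPM under DHT and at 46.1, 50.1 and 46.9 CPM with enzalutamide. The NTC libraries under DHT stood alone above the other 9. DUT fell in NTC cells (log2 -0.49 ± 0.07 SE), and its change in knockdown cells was 0.14 ± 0.07 SE (adjusted p = 0.166). The difference of 0.63 ± 0.09 SE passed the test (adjusted p = 0.00613). DUT has processed copies in the genome, so how reads were shared among them is uncertain.

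The small subunit of the same reductase had the opposite sign. RRM2 was at 140 ± 7.56 CPM under DHT and 26.9 ± 4.88 CPM with enzalutamide in NTC cells, and at 54.4 ± 14.9 and 6.75 ± 0.963 CPM in knockdown cells (SD, n = 3). Its log2 difference was -0.62 ± 0.24 SE and did not pass (adjusted p = 0.3). RRM2 was picked after its values were seen.

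Repair by homologous recombination and the Fanconi pathway held 3 called genes among 39 tested, FANCD2, GEN1 and USP1, with a median difference of 0.28 and 32 genes above 0. In NTC cells 34 of the 39 fell with enzalutamide and in knockdown cells 27, where 16.6% and 12.2% of all tested genes were called lower. FANCD2, the protein that is ubiquitylated when a fork meets a crosslink, was at 57.2, 64.5 and 65.2 CPM in NTC libraries under DHT and at 18.5, 22.1 and 24.9 CPM with enzalutamide. Its knockdown levels were 31.4, 25.9 and 29.3 CPM under DHT and 15.6, 17.7 and 18.3 CPM with enzalutamide. FANCD2 fell 2.85-fold in NTC cells and 1.68-fold in knockdown cells (log2 difference 0.77 ± 0.16 SE, adjusted p = 0.0382). USP1 removes ubiquitin from FANCD2 and PCNA, and GEN1 cuts Holliday junctions. Both fell in NTC cells, and their knockdown changes were -0.09 ± 0.07 and -0.19 ± 0.09 SE (log2; adjusted p = 0.403 and 0.161). The number called in this list was 0 to 5 when 1 library was left out. It was 0 without NTC library 1 or 3 under DHT, NTC library 1 or 2 under enzalutamide, or knockdown library 3 under enzalutamide, 1 without NTC library 2 under DHT, knockdown library 3 under DHT, or knockdown library 1 or 2 under enzalutamide, and 5 without knockdown library 2 under DHT.

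Genes of mitosis fell in both cells, with medians close to each other in the kinetochore list. Of the 49 tested genes of kinetochore, spindle and condensin, 49 fell with enzalutamide in NTC cells and 48 in knockdown cells. Their median log2 fold changes were -1.92 and -1.91, and 16.6% and 12.2% of all tested genes were called lower. Of the 49, 14 had an unadjusted p under 0.05 for the difference, where 11.87% of all tested genes did. The median difference was 0.03, with 26 of 49 above 0. Leaving out 1 library moved this median between -0.11 (knockdown library 2 under DHT) and 0.17 (knockdown library 1 under enzalutamide), so its sign is not fixed. The list had 1 call, NCAPD2, a condensin subunit with a difference of 0.57 ± 0.10 SE (adjusted p = 0.0161). It leaves out other called genes of the mitotic apparatus, all with a positive difference. These are DSN1 (0.71), CENPL (0.73), NCAPD3 (0.58), KIF22 (0.44), HAUS2 (0.53) and RAD21 (0.40), so the result holds for the listed genes only. The NCAPD2 call was lost without NTC library 3 under DHT, and 3 genes of the list were called without knockdown library 1 under DHT. The 34 tested genes of G2/M kinases, cyclins and the anaphase-promoting complex had median log2 fold changes of -1.815 in NTC cells and -1.541 in knockdown cells. This list had a median difference of 0.12 and 1 call, which became 2 without knockdown library 1 under DHT. Its median difference moved between -0.01 without knockdown library 2 under DHT and 0.28 without library 1, so its sign is not fixed either. The gap between knockdown and NTC cells had medians of -1.51 under DHT and -1.58 with enzalutamide for the kinetochore list.

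PLK1, a mitotic kinase picked after its values were seen, is one example. It was at 37.4 ± 4.41 CPM under DHT and 8.53 ± 1.28 CPM with enzalutamide in NTC cells, and at 12.3 ± 2.86 and 2.8 ± 0.244 CPM in knockdown cells (SD, n = 3). The log2 fold change was -2.13 in each. KIF14 and KIF23, whose promoters are shown above, had differences of -0.10 ± 0.32 and 0.11 ± 0.23 SE (adjusted p = 0.948 and 0.91).

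The called gene of the G2/M list was CCNF, which encodes cyclin F, the substrate receptor of a ubiquitin ligase. CCNF was at 30.1, 30.6 and 33.9 CPM in NTC libraries under DHT and at 13.5, 15.5 and 15.3 CPM with enzalutamide. Its knockdown libraries were at 18.7, 18.9 and 15.9 CPM under DHT and at 13.3, 13.6 and 13.7 CPM with enzalutamide. The vehicle means of CCNF were 15.8 ± 0.414 CPM in NTC and 13.2 ± 0.69 CPM in knockdown cells (SD, n = 3). The log2 difference was 0.70 ± 0.11 SE (adjusted p = 0.00941). CCNE2, cyclin E2 of the G1/S transition, had a difference of 0.74 ± 0.14 SE (adjusted p = 0.033) and was the 1 call among 23 tested genes of the G1/S list, whose median was 0.10 (0.04 without knockdown library 2 under DHT and 0.25 without library 1). Knockdown library 2 under DHT was low for CCNE2, at 29.4 CPM against 42.2 and 39.4 CPM.

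Some of the highest differences belonged to genes in none of the lists. DSN1, a kinetochore subunit, and CENPL, a centromere protein, had differences of 0.71 ± 0.12 and 0.73 ± 0.15 SE (adjusted p = 0.0103 and 0.041). DSN1 was at 39.9, 40.9 and 39.1 CPM in NTC libraries under DHT and at 15.5, 16.5 and 16.8 CPM with enzalutamide. Its knockdown libraries were at 20.6, 19.7 and 21.3 CPM and then at 13.3, 13.5 and 14.2 CPM. The spread within each group of DSN1 was small beside these gaps, and it was called in all 18 alternative settings, as were PRIM1, IL1RN and PI4K2B. C20orf72 (now MGME1), a mitochondrial nuclease, had a difference of 0.66 ± 0.09 SE (adjusted p = 0.00527).

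The 12 other called genes with a positive difference fell in NTC cells, and they were named after their values were seen. Of these, 5 also fell in knockdown cells: DNAJC9, a histone chaperone (0.60), RFWD3, a ubiquitin ligase of stalled forks (0.48), MYO19, a mitochondrial myosin (0.45), KIF22, a chromosome-borne kinesin (0.44) and NUP205, a nuclear pore scaffold (0.38). The remaining 7 were not called in knockdown cells: NR2C2AP (0.56), HAUS2 of the augmin complex (0.53), TSEN54 of the tRNA splicing endonuclease (0.46), LBR, the lamin B receptor (0.43), USP37, a deubiquitylase (0.42), RAD21 of cohesin (0.40) and C20orf24, now RAB5IF (0.39). Their adjusted p-values ran from 0.0105 for DNAJC9 to 0.046 for USP37.

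**Figure D3:**
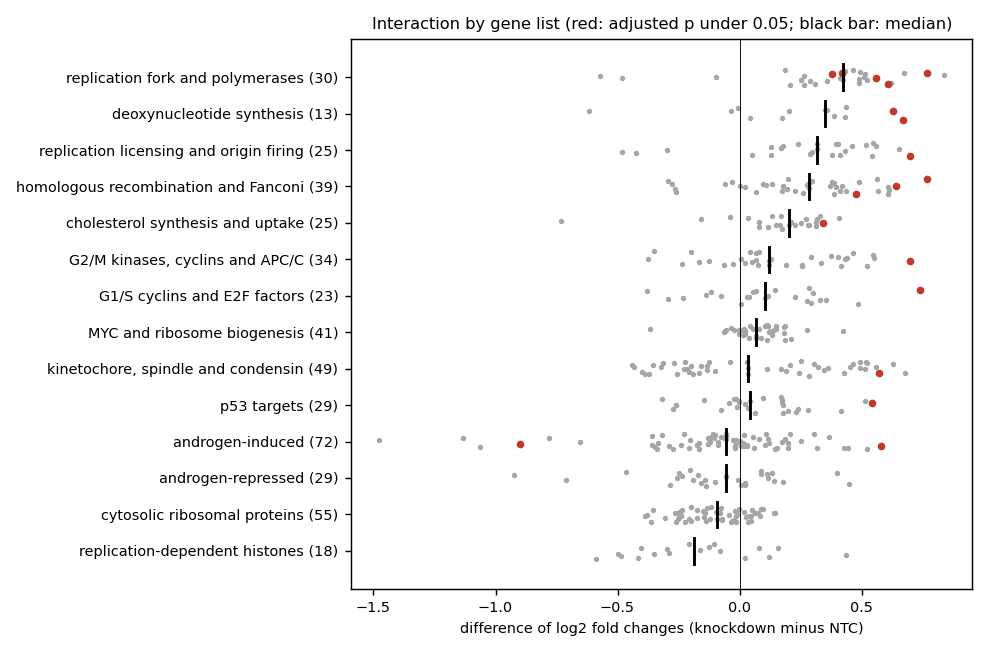
Difference of log2 fold changes (knockdown minus NTC) for every tested member of 14 gene lists, 1 point per gene, with the number tested in parentheses, called genes in red and the list median as a black bar. The replication fork list has its median at 0.42, and the kinetochore list is spread on both sides of 0.

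The promoter windows of these lists differ in the elements they hold. A window runs from 250 bases before to 50 after each start site, and 11112 of the 14558 tested genes were matched to one. An E2F-type octamer was present in the windows of 13 of the 33 matched genes with a positive difference (39.4%), in 0 of the 10 matched genes with a negative one and in 9.93% of all matched tested genes. It was present in 56% of the fork list, 66.7% of the licensing list and 13.6% of the kinetochore list. The CHR was present in 21.2% of the genes with a positive difference, 72.7% of the kinetochore list, 8% of the fork list and 13.8% of all matched tested genes. In the deoxynucleotide list, which includes DUT, the octamers and the CHR were each present in 33.3% of 12 matched genes. The hexamer AGAACA, part of the androgen receptor's element, was present in 9.09% of the genes with a positive difference and 13.3% of all matched tested genes. A match is a description of letters and not of binding.

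**Figure D4:**
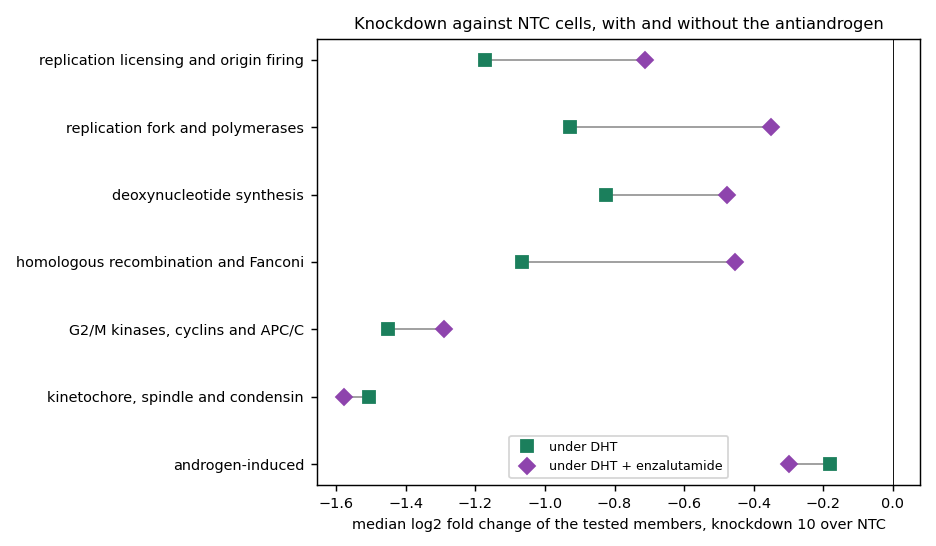
Median log2 fold change of knockdown over NTC cells in 7 gene lists, under DHT (squares) and under DHT with enzalutamide (diamonds). The gap narrows from -0.93 to -0.35 in the fork list and from -1.17 to -0.71 in the licensing list, and it is -1.51 and -1.58 in the kinetochore list.

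A few genes moved in opposite directions. Of the genes called in both cells, 5 had opposite signs, and all 5 were called in the difference: EED, KBTBD2 and HMGN2 fell in NTC cells and rose in knockdown cells, and KIAA1539 (now ATOSB) and CMIP rose in NTC cells and fell in knockdown cells. EED is a core subunit of Polycomb repressive complex 2. It was at 29.9, 30.2 and 29.9 CPM in NTC libraries under DHT and at 22.9, 20.9 and 22.3 CPM with enzalutamide. Its knockdown libraries were at 20.1, 25.3 and 22.5 CPM under DHT and at 25.7, 26.4 and 28.4 CPM with enzalutamide. Neither pair of groups overlapped. EED fell by 0.44 ± 0.07 SE on the log2 scale in NTC cells and rose by 0.25 ± 0.07 SE in knockdown cells (difference 0.69 ± 0.10 SE, adjusted p = 0.00527). EZH2, the catalytic subunit of that complex, fell in both cells, and its difference of 0.21 ± 0.09 SE did not pass (adjusted p = 0.355). EZH2 was picked after its values were seen.

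HMGN2, a nucleosome-binding protein, and KBTBD2, an adaptor of a ubiquitin ligase, made smaller turns, with differences of 0.38 ± 0.07 and 0.40 ± 0.08 SE (adjusted p = 0.0313 and 0.033). HMGN2 has many processed copies, so its count is uncertain. KIAA1539 and CMIP had differences of -0.40 ± 0.07 and -0.32 ± 0.06 SE (adjusted p = 0.0273 and 0.0338). CMIP remained called in 1 of the 12 fits that left out 1 library, KBTBD2 in 3, KIAA1539 in 5 and HMGN2 in 6, while EED remained called in all 12.

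POLH and PI4K2B fell in NTC cells and were not called in knockdown cells. POLH, a polymerase that copies past ultraviolet lesions and the 1 call among 29 tested p53 targets, fell in NTC cells from 43, 46.4 and 45.9 CPM to 35.8, 35.4 and 32.4 CPM. In knockdown cells it went from 38.6, 34.3 and 38.1 CPM to 38.2, 42.9 and 42.5 CPM, with ranges that overlapped and a log2 change of 0.16 ± 0.07 SE (adjusted p = 0.129). The difference was 0.54 ± 0.10 SE (adjusted p = 0.0302). PI4K2B, a lipid kinase, had the lowest adjusted p of all genes, 0.00277. It was at 51.6, 53.2 and 50.7 CPM in NTC libraries under DHT and at 37.5, 37 and 36.5 CPM with enzalutamide, and its 6 knockdown libraries lay between 41.2 and 45.5 CPM.

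Lipid enzymes gave 2 calls. FDPS, which makes farnesyl diphosphate, fell in both cells with a difference of 0.34 ± 0.07 SE (adjusted p = 0.033) and was the 1 call among 25 tested genes of cholesterol synthesis and uptake. Of these 25, 22 had a difference above 0 (median 0.20), 21 fell in NTC cells and 13 in knockdown cells. Over all tested genes 16.6% were called lower in NTC cells and 12.2% in knockdown cells. FADS1, the delta-5 fatty acid desaturase, fell in NTC cells from 147, 127 and 138 CPM to 84.7, 89.9 and 91.5 CPM. Its knockdown libraries were low throughout, at 47.7, 41.1 and 38.7 CPM under DHT and at 39.8, 38.1 and 42.1 CPM with enzalutamide. The log2 difference of FADS1 was 0.54 ± 0.10 SE (adjusted p = 0.0313), and the other 27 tested genes of fatty acid synthesis did not pass. CTSL2 (now CTSV), a lysosomal protease with a close paralog, had the highest difference of all called genes, 0.93 ± 0.17 SE (adjusted p = 0.0313). It was at 10.5, 11.2 and 12.1 CPM in NTC libraries under DHT, at 4.91, 6.24 and 6.08 CPM with enzalutamide, and between 3.93 and 5.39 CPM in all 6 knockdown libraries.

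For the androgen targets KLK3, KLK2, TMPRSS2 and FKBP5 the difference did not pass the test. KLK3, which encodes prostate-specific antigen, was at 256, 208 and 239 CPM in NTC libraries under DHT and at 30.7, 41.6 and 43.8 CPM with enzalutamide. In the knockdown group the values were 111, 82.2 and 85.6 CPM under DHT and 14.6, 10.9 and 12.6 CPM with enzalutamide. KLK3 was lower in knockdown cells under both treatments, and it fell 6.06-fold in NTC cells and 7.34-fold in knockdown cells. The difference was -0.27 ± 0.20 SE (log2) and did not pass (adjusted p = 0.644). KLK2, TMPRSS2 and FKBP5, which are induced by androgen, had differences of -0.33 ± 0.27, 0.20 ± 0.18 and 0.11 ± 0.16 SE (adjusted p = 0.691, 0.724 and 0.872). These standard errors leave room for moderate differences in either direction. Among 72 tested androgen-induced genes, 52 fell in NTC cells and 46 in knockdown cells, where 16.6% and 12.2% of all tested genes were called lower. The median difference of these 72 was -0.05, with 1 call in each direction. That median was -0.14 without knockdown library 2 under DHT and 0.03 without library 1, so its sign is not fixed. There were 2 negative calls without NTC library 1 or knockdown library 2 under DHT, and 2 positive calls without knockdown library 1 under DHT. Among 29 tested androgen-repressed genes none was called, and 2 had an unadjusted p under 0.05.

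KLK4 was the 1 androgen-induced gene with a negative difference that passed the test. This kallikrein, a secreted protease, was at 110, 93.9 and 105 CPM in NTC libraries under DHT and at 34.3, 36.9 and 36.7 CPM with enzalutamide. Knockdown libraries 1 to 3 had 188, 127 and 157 CPM under DHT and 28.9, 29.9 and 29.3 CPM with enzalutamide. Knockdown cells were thus above NTC cells under DHT and below them with enzalutamide, with no overlap in either. KLK4 fell 2.87-fold in NTC cells and 5.35-fold in knockdown cells (log2 difference -0.90 ± 0.14 SE, adjusted p = 0.0102). Reads shared with other kallikreins were not examined. NCAPD3, a condensin subunit on the androgen-induced list, went the other way. It fell 2.02-fold in NTC cells and 1.35-fold in knockdown cells (log2 difference 0.58 ± 0.08 SE, adjusted p = 0.00527).

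**Figure D5:**
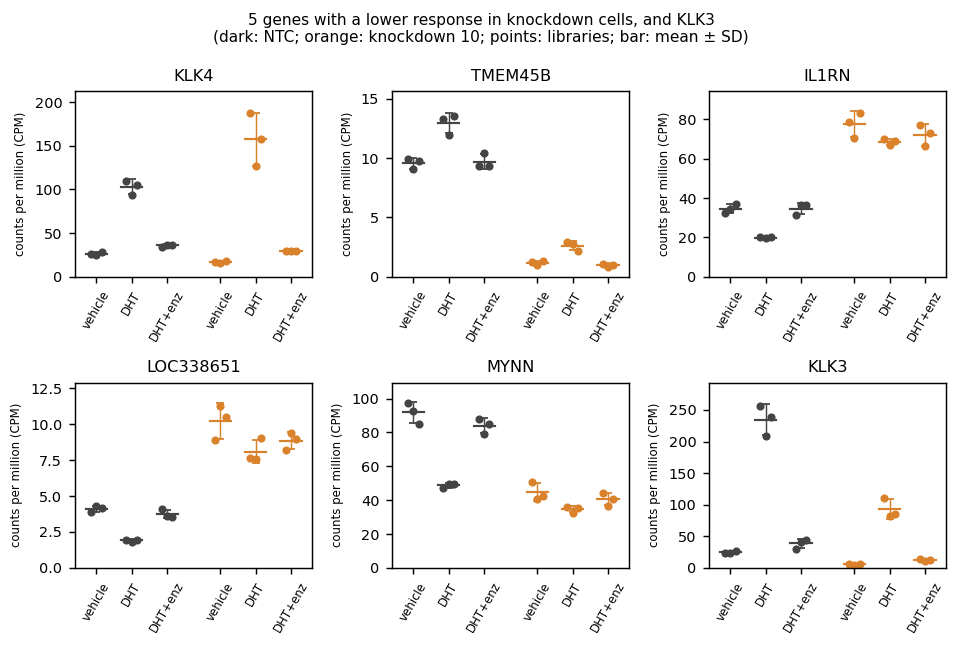
CPM of 5 genes with a lower response in knockdown cells, and of KLK3, in each of 3 libraries per group (points, with mean ± SD) for vehicle, DHT, and DHT with enzalutamide in NTC (dark) and knockdown 10 cells (orange). KLK4 is higher in knockdown cells under DHT, whereas IL1RN returns to its vehicle level in NTC cells and moves little in knockdown cells.

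Of the 12 genes with a negative difference, 8 were called higher with enzalutamide in NTC cells (12.6% of all tested genes were). None was called higher in knockdown cells (8.08% of all tested genes were), where 6 were called lower (12.2%) and 6 were not called. The 12 were chosen by this difference, so these directions are not independent of the choice. IL1RN, the antagonist of the interleukin-1 receptor, was at 19.9, 19.5 and 20.1 CPM in NTC libraries under DHT and at 31.2, 36.3 and 36.2 CPM with enzalutamide. Its knockdown libraries were at 69.9, 66.9 and 68.8 CPM under DHT and at 77.1, 66.2 and 72.8 CPM with enzalutamide. IL1RN was thus higher in knockdown cells throughout and rose only in NTC cells (difference -0.73 ± 0.11 SE on the log2 scale, adjusted p = 0.00527). MYNN, a zinc finger protein, was at 47.2, 49.7 and 49.5 CPM in NTC libraries under DHT and at 87.8, 79.3 and 84.8 CPM with enzalutamide. In knockdown cells it was at 36.1, 32.6 and 35.2 CPM and then at 44.1, 36.8 and 40.6 CPM (difference -0.56 ± 0.11 SE, adjusted p = 0.041).

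LOC338651, an uncharacterised locus, rose in NTC cells from 1.97, 1.82 and 1.97 CPM to 4.1, 3.64 and 3.58 CPM. It was at 7.62, 7.61 and 9.01 CPM in knockdown libraries under DHT and at 8.2, 9.41 and 8.97 CPM with enzalutamide (difference -0.84 ± 0.17 SE, adjusted p = 0.0338). TMEM45B, a transmembrane protein, had the lowest difference of all called genes, -0.98 ± 0.19 SE (adjusted p = 0.0331). It was between 9.35 and 13.6 CPM in the 6 NTC libraries and between 0.85 and 2.9 CPM in the 6 knockdown libraries, so its knockdown counts were few. Both remained called in 2 of the 12 fits that left out 1 library.

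The other negative differences were smaller. C17orf63 (now FAM222B), DLGAP4, a scaffold protein, and DYRK1B, a kinase of quiescent cells, rose in NTC cells and were not called in knockdown cells, with differences of -0.49 ± 0.09, -0.48 ± 0.10 and -0.41 ± 0.08 SE (adjusted p = 0.0237, 0.0353 and 0.0353). FAM117A and DYNLRB1, a light chain of the dynein motor, fell in knockdown cells and were not called in NTC cells, with differences of -0.47 ± 0.10 and -0.39 ± 0.08 SE (adjusted p = 0.0475 and 0.033).

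In the main fit the remaining lists gave no call in the difference. They include 41 tested genes of MYC and ribosome biogenesis, 55 cytosolic ribosomal proteins, 36 genes of the integrated stress response, 52 interferon-stimulated genes and 18 replication-dependent histone genes. Their median differences were 0.07, -0.09, 0.15, 0.01 and -0.19, and each moved by more than 1.5 times when 1 library was left out. The MYC median was 0.03 without knockdown library 2 under DHT and 0.14 without library 1. The ribosomal protein median was -0.15 without knockdown library 1 under enzalutamide and -0.01 without knockdown library 2 under DHT. The interferon median was -0.03 without knockdown library 1 under DHT and 0.11 without library 2, a change of sign. The histone median was -0.28 without NTC library 1 under DHT and -0.06 without knockdown library 2 under DHT. Replication-dependent histone mRNAs lack the poly(A) tails by which such a library selects RNA. Of the integrated stress response genes 9 of 36 rose with enzalutamide in NTC cells, where 12.6% of all tested genes rose, and 17 in knockdown cells, where 8.08% did. Of the 36, 29 had a difference above 0 and 4 an unadjusted p under 0.05, a share near the 11.87% of all tested genes. The median of this list was 0.33 without NTC library 1 and 0.06 without NTC library 3 under enzalutamide.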

How the data were processed

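Polyadenylated RNA was sequenced from strand-marking libraries, per the labels' protocols. The authors deposited RSEM expected counts for 23207 gene symbols per library; CASAVA 1.8.2, RSEM 1.2.31 and hg19 are named in the submitters' processing notes, and the aligner is not given in the sources used here. Whether counting used the strand is likewise not given, so overlapping and antisense genes cannot be told apart.

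The expected counts were rounded to whole numbers. The 18 libraries in charcoal-stripped serum were fitted together, 1 mean per group, after filterByExpr by group left 14558 genes with at least 99.975% of the counts. TMM factors were 0.969 to 1.014, and the common biological coefficient of variation was 7.79%. The difference of the 2 responses and each response were each put to a two-sided quasi-likelihood F test of edgeR 4.0.16 (R 4.3.3, limma 3.58.1), with p-values adjusted by Benjamini-Hochberg over all 14558 genes within a comparison. A gene was called at an adjusted p under 0.05. Levels are CPM on TMM-scaled library sizes, folds are fitted, and standard errors are the log2 fold change divided by the square root of F. The script was tested on simulated data.

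The comparison, the gene lists (43 lists, 1205 symbols, 1082 tested) and the rule for naming genes were chosen with earlier results of these data known. Named are SIRT1, KLK3, KLK2, TMPRSS2 and FKBP5, the 12 highest and 12 lowest called differences at an average log2 CPM of at least 1, up to 6 genes called in both cells with opposite signs, and up to 4 called members per list. Genes named beyond the rule, which include RFC5, PI4K2B and ITGB1BP1, were chosen after their values were seen. The 6 libraries in fetal bovine serum were not used here. Alternatives were DESeq2 1.42.0, its size factors, no filter, a fit of 12 libraries, a replicate block, and leaving out libraries. Promoter windows are RefSeq's on GRCh38.p14, matched by symbol or former symbol, so their coordinates are not on the authors' build.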

Additional observations from a re-analysis of the deposited data

Results flagged for a closer look

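The responses of NTC and knockdown cells to enzalutamide differed, by the test of the difference itself, for 51 genes, and 36 of these are named by the rule. The log2 difference was positive for 24 named genes, with values of CTSL2 0.93, FANCD2 0.77, PRIM1 0.77, CCNE2 0.74, CENPL 0.73, DSN1 0.71, CDT1 0.70, CCNF 0.70, EED 0.69, RRM1 0.67, C20orf72 0.66, GEN1 0.64, DUT 0.63, PCNA 0.61, NCAPD3 0.58, NCAPD2 0.57, POLH 0.54, FADS1 0.54, USP1 0.48, DNMT1 0.42, KBTBD2 0.40, HMGN2 0.38, RPA1 0.38 and FDPS 0.34. It was negative for 12 named genes, with values of TMEM45B -0.98, KLK4 -0.90, LOC338651 -0.84, IL1RN -0.73, MYNN -0.56, C17orf63 -0.49, DLGAP4 -0.48, FAM117A -0.47, DYRK1B -0.41, KIAA1539 -0.40, DYNLRB1 -0.39 and CMIP -0.32.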

How the results depend on the processing

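The 51 genes called in the difference kept their sign in all 18 alternatives, and DSN1, IL1RN, PI4K2B and PRIM1 stayed called in each. Their number was 49 with DESeq2's size factors, 46 with no filter, 256 with the DESeq2 Wald test (all 51 shared) and 5 when the 6 vehicle libraries were left out of the fit, which leaves fewer libraries to estimate the spread. Leaving out 1 library gave 16 to 176. Leaving out all libraries numbered 1, a setting chosen after seeing the data, gave 60 genes, 26 of them shared. The number of calls in each single response stayed within 1.5 times except under the block. With 3 libraries per group and a median standard error of 0.13 (log2), small differences were not detectable.

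The replicate numbers are not said to mark shared cultures. Same-numbered libraries deviated together in 17 of 18 pairs at a correlation over 0.1 (0.0779 to 0.361), which falls short of every pair, and 12 of 12 libraries correlated best with their own number, a hint from the data and not the design. With the number as a replicate block, 573 genes were called in the difference, 334 higher and 239 lower (58.3% higher against 76.5% without it), all 51 among them, and 4518 in the knockdown response. Calls with the block and with the DESeq2 Wald test were 16 and 15 in the fork list, 10 and 8 in the licensing list, 11 and 9 in recombination, 5 and 4 in deoxynucleotides, 7 and 4 in G2/M, 6 and 4 in kinetochore, and 4 and 2 in G1/S. Without the vehicle libraries the fork list had 1 and each of these others 0. The background is 573 of 14558 tested genes with the block, and for the Wald test the count given above. Lists outside the cell cycle also gained calls with the block. Cholesterol synthesis and uptake had 5 higher, and immediate early genes had 4 lower. Interferon-stimulated genes had 1 higher and 3 lower, and androgen-induced genes had 3 higher and 2 lower.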
